A study of Homo sapiens with 6 samples.

Results

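The 10 genes described here encode the machinery that carries a cell through G1 phase towards DNA replication: the D-type cyclins CCND1 and CCND3, the E-type cyclins CCNE1 and CCNE2, the kinases CDK2, CDK4 and CDK6, the CDK inhibitors CDKN1B (p27) and CDKN2C (p18), and the retinoblastoma protein RB1. These genes, and the lists used further on, were chosen by role with earlier results of these data known. Counts of them set beside shares of all genes are therefore descriptions. The deposited gene table held all 10 symbols among its 17187 genes, and all 10 passed the filter on low values. Total RNA was sequenced from HT-1080 cells, an established human fibrosarcoma line labelled wild type, giving 3 libraries of cells exposed to IFNg (recombinant interferon gamma, 10 ng/ml, 8 h) and 3 control libraries of cells that received PBS. Separate cultures are not mentioned in the labels, so p-values measure only the spread between these libraries, which may be technical.

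As background, D-type cyclins bind CDK4 and CDK6 and E-type cyclins bind CDK2. Both kinds of complex phosphorylate RB1 and its relatives, which releases E2F transcription factors and lets genes of S phase be transcribed. CDKN2C binds CDK4 and CDK6 and keeps D cyclins off them, while CDKN1B binds cyclin-CDK complexes and is best known for inhibiting CDK2. IFNg, a cytokine of T cells and natural killer cells, signals through JAK kinases and is known for slowing the growth of many cell types. HT-1080 cells are known to carry a deletion that removes CDKN2A, the gene of the inhibitor p16.

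Values are normalised read counts, that is, whole reads per gene divided by 1 size factor per library. Because gene length does not enter them, tests compare libraries. Levels of different genes, as of the cell type markers below, are set side by side only as a rough description. Libraries held 59556948 to 83501954 reads assigned to genes, and the 10 genes were covered by between 245 reads (CCNE1, control 1) and 74888 reads (CCND1, IFNg 1) in a library. All 5 genes fixed as a check of the treatment rose in limma, with log2 differences of 5.45 for GBP1, 4.54 for TAP1 and 5.06 for CIITA. Another of them, IRF1, a transcription factor induced by IFNg whose promoter is used further on, stood at 26296, 28118 and 30650 in IFNg libraries, against 395, 482 and 995 in control libraries. Of the fixed cell type markers, 7 mesenchymal genes were in the table and summed to between 571752 and 627390 in IFNg libraries and between 630409 and 674534 in control libraries. VIM alone had 314888 to 406141 per library, while S100A4 of the same list had 19.5 to 83.5. Endothelial markers summed to at most 45.5 in IFNg and 35.4 in control libraries, leukocyte markers to at most 176 in IFNg and 157 in control, and epithelial markers to at most 78.0 in IFNg and 68.1 in control. These sums rested on 3 endothelial, 4 leukocyte and 2 epithelial genes.

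Control 3 stood apart from controls 1 and 2 in the genes of this pathway, and values of the 10 genes are therefore also given without it. Control 3 was singled out from these same data. Fits without it, without both libraries numbered 3 or with a term for them are therefore descriptions and no added support. Where control 3 was the highest control, leaving it out raises the difference by construction. Of the 10 genes, 8 were higher in control 3 than in both other controls, where 36.2% of the 15546 genes tested were. The excess over the mean of controls 1 and 2 was 2.50-fold for CCNE2, 1.94-fold for CDKN2C, 1.85-fold for CCND3 and 1.49-fold for CDK2. IFNg 3 differed less from IFNg 1 and 2, with a median log2 difference of 0.09 over the 10 genes, against 0.31 for control 3 from the other controls.

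In limma with all 6 libraries, IFNg-treated HT-1080 cells had more transcript of the D-type cyclin CCND1 and of the E-type cyclin CCNE2. In limma on log2(normalised count + 1), with Benjamini-Hochberg adjustment over all 15546 genes, these were the 2 of the 10 genes that passed an adjusted p of 0.05, both higher in IFNg, where 3.27% of all genes tested were called higher. None of the 10 was called lower, against 1.05% of all genes. At an unadjusted p under 0.05, 6 of the 10 were higher and 0 lower, where 8.81% of all genes were higher and 6.46% lower. On the recovered reads, edgeR called CCND1 (3.1% of all genes higher, 1.09% lower) and DESeq2 called CCND1 and CCND3 (4.61% higher, 2.2% lower), and neither called any of the 10 lower. Neither method called CCNE2, whose limma call held in 9 of 18 alternatives, against 17 of 18 for CCND1. Both counts include the fits without control 3, without both libraries numbered 3 and with a term for them, which are no added support. In limma, CDK2, CCND3, CCNE1, RB1 and CDKN2C had positive differences that did not pass, with an interval that includes 0 for CDKN2C. CDK4, CDK6 and CDKN1B had differences close to 0. In these bulk samples, more transcript per cell and a larger share of cells in one phase of the cycle cannot be told apart.

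**Figure D1:**
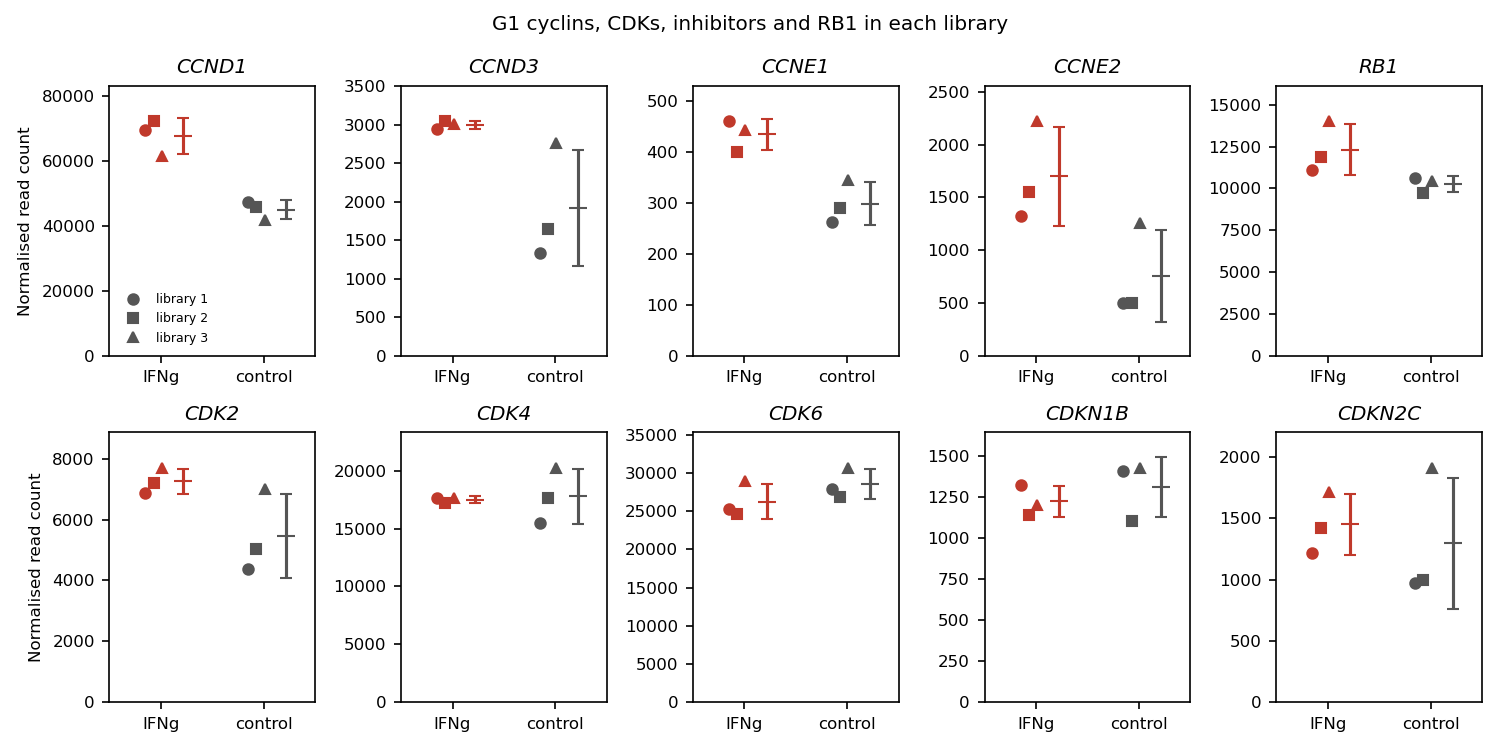
Normalised read count (linear y axis from 0) of the 10 genes in each IFNg library (red) and control library (grey), with the mean and SD of 3 libraries to the right of the points; circles, squares and triangles are libraries 1, 2 and 3. For CCND1 all red points lie above all grey ones, while the triangle of control 3 lies close to the IFNg values for CCND3 (2766), CCNE2 (1256) and CDK2 (7011).

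Among the D-type cyclins, CCND1 on chromosome 11 had normalised counts of 69579, 72245 and 61480 in IFNg libraries, against 47376, 45823 and 41916 in control libraries. Every IFNg library lay well above every control library, and within each group library 3 was the lowest. The mean was 67768 ± 5606 in IFNg and 45038 ± 2813 in control (SD, n = 3 each), a ratio of 1.50. The log2 difference was 0.59 ± 0.09 (SE; 95% interval 0.38 to 0.79, limma adjusted p = 0.00275). Without control 3 the log2 difference was 0.54 (adjusted p = 0.00229). Leaving out any 1 library kept the call (largest adjusted p 0.0335), and edgeR's quasi-likelihood test made it too (0.00151). With limma's variance trend turned off it missed the threshold (0.0846).

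CCND3, the other D-type cyclin of the set, on chromosome 6, stood at 2946, 3047 and 3013 in IFNg libraries, against 1336, 1647 and 2766 in control libraries. The groups did not overlap, although control 3 came close to the IFNg libraries, which were nearly equal to each other. The means were 3002 ± 51.3 in IFNg and 1916 ± 752 in control, and the log2 difference of 0.72 ± 0.21 did not pass (95% interval 0.26 to 1.18, limma adjusted p = 0.0913). Without control 3 the difference was 1.02 (adjusted p = 0.000277), and without both libraries numbered 3 it was 1.01 (adjusted p = 0.000259). DESeq2 on the recovered reads called CCND3 with all 6 libraries (adjusted p = 0.0277).

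Whether the CCND1 to CCND3 ratio differed between the groups could not be decided by the test used. The log2 ratio was 4.49 ± 0.12 in IFNg and 4.62 ± 0.63 in control (SD, n = 3 each), a difference of -0.13. The 2-sided exact permutation test gave p = 0.8, the same after adjustment over 3 paralog pairs. The smallest p that 3 against 3 can give is 0.1, so this test could not pass the threshold for any pair. The difference was 0.13 without control 1 and -0.48 without control 3. CCND2, the D-type cyclin outside the set, had 309, 401 and 224 in IFNg libraries, against 451, 526 and 440 in control libraries. All of its IFNg values were below all of its control values, with a log2 difference of -0.64 ± 0.26 (limma adjusted p = 0.25, not called) and -0.68 without control 3 (adjusted p = 0.209).

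The D-type cyclins are related in sequence, and their shared stretches were measured. In GENCODE v29 coding sequences, CCND1 and CCND3 were identical at 68.2% of aligned bases, and CCND1 and CCND2 at 70.1%. The longest stretches that the pairs share exactly in these coding sequences are shown as a measure of exact sharing only. They are in capitals throughout and read 5′ to 3′ in the coding strand:
CCND1 and CCND3, 20 bases: CTGGCCATGAACTACCTGGA
CCND1 and CCND2, 23 bases: GCCACCTGGATGCTGGAGGTCTG
Both runs are shorter than the 50 cycles of a read, but matches that allow mismatches were not searched. No run of 50 bases in the annotated transcripts of any of the 10 genes occurred in another of the 10. Runs shared with genes at another locus made up 0.228% of the 50-base runs of CDK4, 0.132% of those of CCND3 and none of the other 8.

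Of the E-type cyclins, CCNE2 had the largest ratio of the 10 genes. Its normalised counts were 1327, 1547 and 2221 in IFNg libraries, against 502.4, 501.9 and 1256 in control libraries. The groups did not overlap, but control 3 lay just under IFNg 1, and library 3 was the highest in each group. The means were 1698 ± 466 in IFNg and 753 ± 435 in control (SD, n = 3 each), a ratio of 2.25, with a log2 difference of 1.28 ± 0.32 (95% interval 0.58 to 1.98, limma adjusted p = 0.0441). CCNE2 missed the threshold when IFNg 1, 2 or 3 or control 1 or 2 was left out (adjusted p of 0.0797 to 0.217), in edgeR (0.0659), in DESeq2 (0.172), without a variance trend (0.311) and after quantile normalisation (0.056). Without control 3 the log2 difference was 1.72 (adjusted p = 0.000193), and without both libraries numbered 3 it was 1.51 (0.000121).

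CCNE1, on chromosome 19, had 461, 401 and 444 in IFNg libraries, against 262, 291 and 345 in control libraries. The groups did not overlap, with control 3 again the highest control. The means were 435 ± 30.9 in IFNg and 299 ± 41.7 in control, and the log2 difference of 0.55 ± 0.22 did not pass (95% interval 0.06 to 1.04, limma adjusted p = 0.263), nor did it without any single library (0.16 to 0.539). Without control 3 the log2 difference was 0.65. The log2 ratio of CCNE1 to CCNE2 was -1.93 ± 0.40 in IFNg and -1.19 ± 0.58 in control (SD, n = 3 each). The difference was -0.74 (2-sided exact permutation test p = 0.2, 0.6 adjusted over the 3 pairs). The smallest p that 3 against 3 can give is 0.1, so the permutation test could not pass the threshold and leaves the question undecided. The ratio of control 3 (-1.86) lay among those of the IFNg libraries.

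The kinase that pairs with E-type cyclins, CDK2 on chromosome 12, had 6884, 7195 and 7700 in IFNg libraries, against 4363, 5032 and 7011 in control libraries. Control 3 lay above IFNg 1, so the groups overlapped, while controls 1 and 2 lay below all IFNg libraries. The means were 7260 ± 412 in IFNg and 5469 ± 1377 in control, with a log2 difference of 0.44 ± 0.15 that did not pass (95% interval 0.11 to 0.76, limma adjusted p = 0.156). Without control 3 it was 0.63 (adjusted p = 0.0017), and without both libraries numbered 3 it was 0.59 (0.00143).

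CDK4 and CDK6, the partners of the D-type cyclins, had differences near 0. CDK4, on chromosome 12, had 17617, 17163 and 17674 in IFNg libraries, against 15502, 17613 and 20247 in control libraries. All 3 IFNg values lay inside the range of the controls. The log2 difference was -0.02 ± 0.10 (95% interval -0.24 to 0.21, limma adjusted p = 0.968), and it lay between -0.11 and 0.08 when each library was left out in turn, with 0.08 without control 3. CDK6, on chromosome 7, had 25309, 24570 and 28883 in IFNg libraries, against 27944, 26863 and 30673 in control libraries. The groups overlapped, and library 3 was the highest in each. Its log2 difference was -0.12 ± 0.09 (95% interval -0.32 to 0.09, adjusted p = 0.619), and -0.07 without control 3. The intervals of both kinases leave out a rise as large as the 0.38 that is the lower bound for CCND1. The log2 ratio of CDK4 to CDK6 was -0.58 ± 0.11 in IFNg and -0.69 ± 0.14 in control (SD, n = 3 each; difference 0.10, 2-sided exact permutation test p = 0.5, 0.75 adjusted over the 3 pairs). With 0.1 as the smallest p that 3 against 3 can give, this permutation test could not pass the threshold either.

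**Figure D2:**
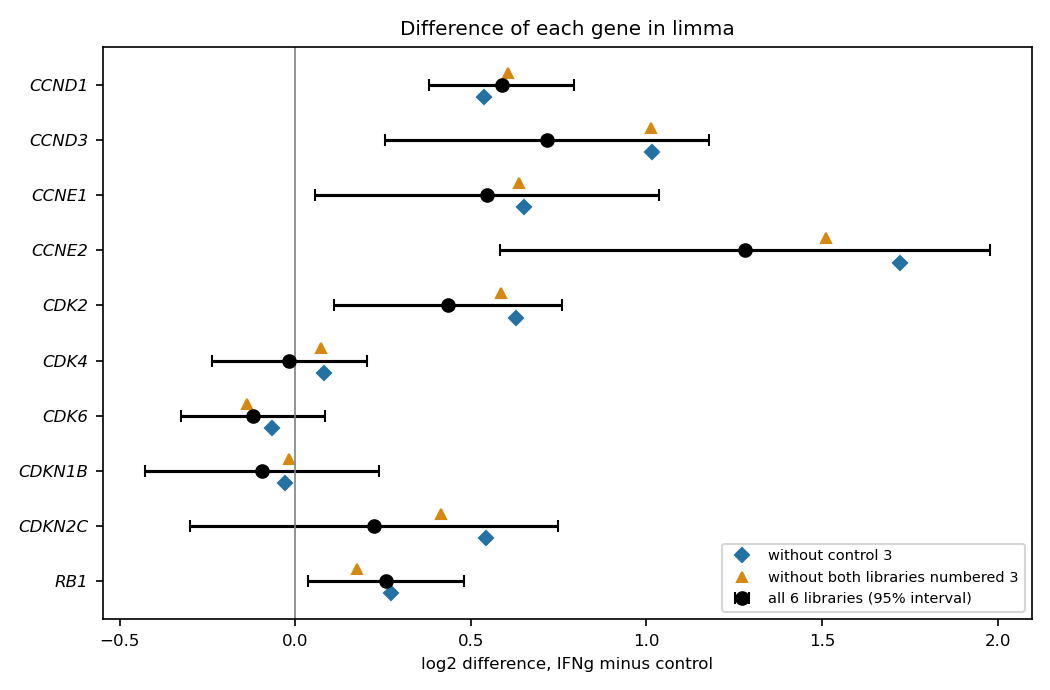
Log2 difference, IFNg minus control, of each of the 10 genes in limma (x axis), with the 95% interval for all 6 libraries (black) and the value without control 3 (blue diamonds) or without both libraries numbered 3 (orange triangles). The values without control 3 are larger for CCND3 (1.02), CCNE2 (1.72), CDK2 (0.63) and CDKN2C (0.54), and smaller for CCND1 (0.54).

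Neither CDK inhibitor of the set passed. CDKN1B, on chromosome 12, which encodes p27, had 1326, 1141 and 1204 in IFNg libraries, against 1408, 1102 and 1429 in control libraries. The groups overlapped, and control 2 was the lowest of all 6. The log2 difference was -0.09 ± 0.15 (95% interval -0.43 to 0.24, limma adjusted p = 0.844), and -0.03 without control 3. CDKN2C, on chromosome 1, which encodes p18, had 1221, 1420 and 1713 in IFNg libraries, against 975, 998 and 1913 in control libraries. Control 3 was the highest library of all and controls 1 and 2 were the lowest, and the log2 difference was 0.22 ± 0.24 (95% interval -0.30 to 0.75, adjusted p = 0.747). Without control 3 it was 0.54 (adjusted p = 0.0791).

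RB1, on chromosome 13, which encodes the repressor that these kinases inactivate, had 11084, 11872 and 14016 in IFNg libraries, against 10628, 9709 and 10425 in control libraries. All IFNg values were above all control values, by a small margin for IFNg 1. The means were 12324 ± 1517 in IFNg and 10254 ± 483 in control, and the log2 difference of 0.26 ± 0.10 did not pass (95% interval 0.04 to 0.48, limma adjusted p = 0.232), nor did the 0.27 without control 3 (0.166). Counting CCND1, CCND3, CCNE1 and CCNE2 with RB1, 5 of the 10 genes had groups that did not overlap, all higher in IFNg, where 10.7% of all genes tested did so in that direction and 9.28% in the other. Without control 3, limma called CCND1, CCND3, CCNE2 and CDK2 higher and none lower, where it called 5.45% of all genes higher and 2.93% lower. Without both libraries numbered 3 it called the same 4 genes, against 5.67% of all genes higher and 3.85% lower, and with a term for these libraries it called RB1 as well (adjusted p = 0.0406, against 6.21% of all genes higher and 3.69% lower). The median log2 difference was 0.35 over the 10 genes and -0.01 over all genes tested.

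Some of the genes overlap a neighbour on the opposite strand in GENCODE v29. The library kit marks strand, but whether reads were counted by strand is not given in the sources used here. INTS8, a subunit of the Integrator complex, covers 37.0% of the exon bases of CCNE2, and averaged 6110 ± 158 in IFNg and 5985 ± 498 in control (SD, n = 3 each). TSPAN31, a tetraspanin gene, covers 43.2% of those of CDK4, with means of 1738 ± 260 in IFNg and 1677 ± 143 in control. LTO1, listed in the table under its older symbol ORAOV1, covers 10.3% of those of CCND1, with 480 ± 165 in IFNg and 590 ± 68.4 in control. An antisense gene, AC025162.1, covers 14.5% of those of CDK2 and was not analysed here. For INTS8, TSPAN31 and ORAOV1 the group means differed by less than the larger of the group SDs. PMEL, a pigment cell gene, covers 2.29% of the exon bases of CDK2 and averaged 10.8 ± 15.8 in IFNg and 25.9 ± 16.0 in control. NDUFAF6, whose exons share 0 bases with those of CCNE2 though the genes overlap, averaged 629 ± 125 in IFNg and 415 ± 55.3 in control. The part that neighbours' reads had in the values of CCNE2, CDK4, CDK2 and CCND1 was not tested.

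Downstream of these kinases, pocket proteins and E2F factors were measured by all 12 genes of a list fixed by role. In limma 0 of 12 passed over all genes, with 2 higher and 1 lower at an unadjusted p under 0.05, where 8.81% of all genes were higher and 6.46% lower, and edgeR and DESeq2 called 0 each. The smallest p belonged to E2F1, an activator of S phase genes. It had 3373, 3224 and 2971 in IFNg libraries, against 1891, 1688 and 3052 in control libraries (log2 difference 0.58 ± 0.19, limma adjusted p = 0.132). Control 3 lay among the IFNg libraries. E2F2, a related activator, had 540, 440 and 853 in IFNg libraries, against 157, 121 and 597 in control libraries (1.38 ± 0.49, adjusted p = 0.184), again with control 3 among the IFNg libraries. Without control 3 the log2 differences were 0.83 for E2F1 (adjusted p = 0.000798) and 2.08 for E2F2 (0.00122). Without both libraries numbered 3, 3 of the 12 passed, all higher, where 5.67% of all genes were called higher and 3.85% lower. They were E2F1 (0.88, adjusted p = 0.000291), E2F2 (1.81, 0.00232) and TFDP1, the dimerisation partner of E2F factors (0.31, 0.0197). TFDP1 was named after its value was seen. The median log2 difference of the list was 0.15.

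Of 12 E2F target genes of S phase entry, 0 passed limma over all genes, 7 were higher and 0 lower at an unadjusted p under 0.05, edgeR called 0 and DESeq2 called 1. Over all genes, 8.81% were higher and 6.46% lower at an unadjusted p under 0.05, and DESeq2 called 4.61% higher. All 12 targets had a positive log2 difference, with a median of 0.29, as did 7436 of the 15546 genes tested, whose median was -0.01. CDC6, which loads the replicative helicase onto origins, had 4927, 5289 and 6765 in IFNg libraries, against 2518, 2364 and 4895 in control libraries. Its groups did not overlap, with control 3 just under IFNg 1, and it was not called (0.87 ± 0.23, limma adjusted p = 0.0609; 1.20 and 8.42e-05 without control 3). UHRF1, which helps maintain DNA methylation at replication, had 9589, 10011 and 12500 in IFNg libraries, against 4488, 4814 and 9597 in control libraries, with control 3 just above IFNg 1 (0.84 ± 0.23, adjusted p = 0.0675; 1.19 and 2.49e-05 without control 3). All 12 targets were higher in control 3 than in controls 1 and 2, with a median log2 excess of 0.73, and their median excess in IFNg 3 over IFNg 1 and 2 was 0.31. Without control 3, 8 of the 12 passed and all were higher, and the same number passed without both libraries numbered 3. CDC6 and UHRF1 were among them in both fits. Over all genes, 5.45% were called higher and 2.93% lower without control 3, and 5.67% higher and 3.85% lower without both libraries. The part that cell cycle distribution of the cultures had in these values was not tested.

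**Figure D3:**
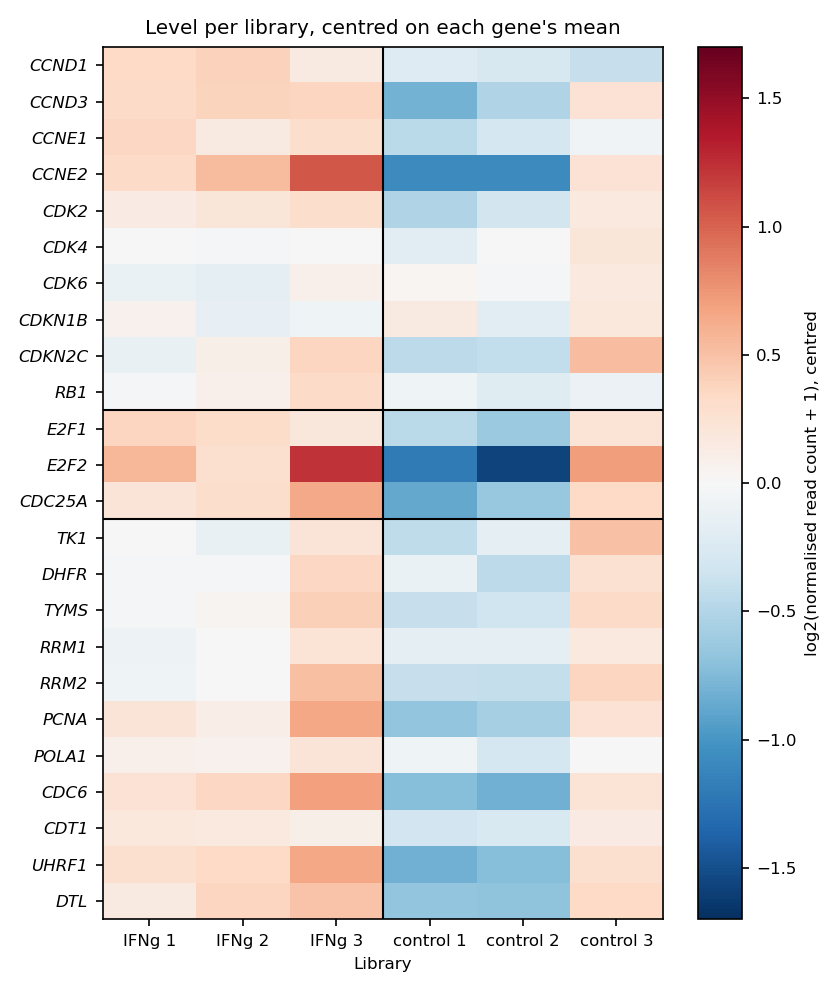
Log2(normalised read count + 1) of each gene in each library, centred on the gene's mean over the 6 libraries (colour scale), for the 10 genes (top), for E2F1, E2F2 and CDC25A (middle) and for E2F target genes of S phase entry (bottom). Controls 1 and 2 are the lowest libraries for CCND3, CCNE1, CCNE2, CDK2 and CDKN2C, whereas control 3 lies above the gene mean for all E2F targets shown but POLA1 and for CCND3, CCNE2, CDK2 and CDKN2C, and below it for CCND1.

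Other genes of the G1 to S transition were listed by role as well. Of 9 further cyclins, CDKs, subunits of the CDK-activating kinase and CDC25A, 0 passed limma over all genes, 1 was higher and 1 lower at an unadjusted p under 0.05, near the 8.81% and 6.46% of all genes, and edgeR and DESeq2 called 0. CDC25A, a phosphatase that activates CDK2, had 2497, 2633 and 3370 in IFNg libraries, against 1177, 1379 and 2721 in control libraries (0.77 ± 0.25, limma adjusted p = 0.138). Control 3 lay among the IFNg libraries, and the log2 difference was 1.14 without control 3 (adjusted p = 0.000423) and 1.01 without both libraries numbered 3 (0.000296). CCND2, given above, was the one that was lower. The median of the list was 0.02.

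Of 9 ubiquitin ligase parts that act on G1 cyclins or p27, 0 passed limma over all genes, 1 was higher and 0 lower at an unadjusted p under 0.05, against 8.81% higher and 6.46% lower of all genes, and edgeR and DESeq2 called 0. SKP2, the F-box protein that targets p27 for degradation, had 7178, 6350 and 8435 in IFNg libraries, against 4497, 4972 and 7137 in control libraries (0.42 ± 0.16, limma adjusted p = 0.219). The log2 difference was 0.62 without control 3 (adjusted p = 0.00602) and 0.51 without both libraries numbered 3 (0.00416). FBXO31, an F-box protein linked to cyclin D1 turnover, differed by -0.24 ± 0.14 (adjusted p = 0.462). The median of the list was -0.04.

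Further CDK inhibitors did not pass either. Of 4 measured, 0 passed limma over all genes, 0 were higher and 1 lower at an unadjusted p under 0.05, against 8.81% higher and 6.46% lower of all genes, and edgeR and DESeq2 called 0. CDKN1A (p21), an inhibitor that p53 induces, had 16873, 16148 and 13635 in IFNg libraries, against 16105, 17929 and 16342 in control libraries. IFNg 3 was the lowest of the 6 and the groups overlapped (-0.11 ± 0.10, 95% interval -0.33 to 0.10, limma adjusted p = 0.658). CDKN2D (p19), of the same family as CDKN2C, had 339, 236 and 324 in IFNg libraries, against 423, 355 and 617 in control libraries, and all IFNg values were below all control values (-0.61 ± 0.27, adjusted p = 0.302). CDKN3, a phosphatase that acts on CDK2, differed by -0.30 ± 0.14 (adjusted p = 0.354). CDKN2A and CDKN2B were not found by symbol among the genes used here and so were not analysed. MTAP, which neighbours CDKN2A on chromosome 9, was read at a low level, with 155, 175 and 241 in IFNg libraries, against 195, 236 and 260 in control libraries (-0.29 ± 0.29, adjusted p = 0.723). The antisense transcript CDKN2B-AS1 of the same region averaged 846 ± 176 in IFNg and 811 ± 108 in control (0.05 ± 0.20, adjusted p = 0.952).

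**Figure D4:**
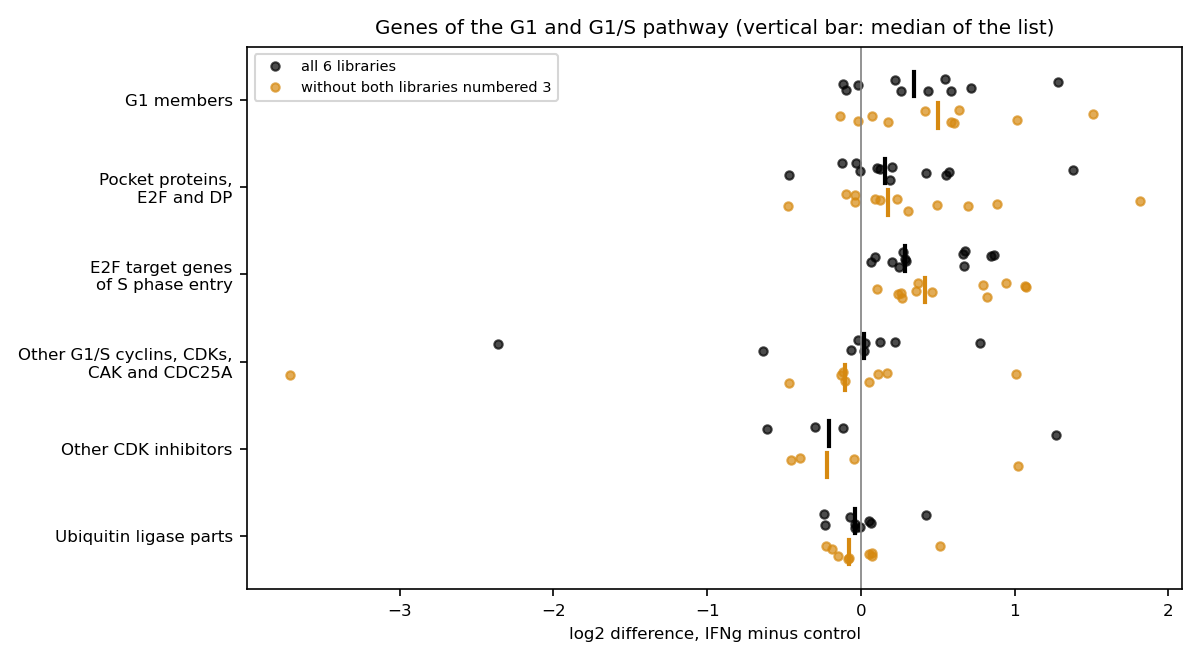
Log2 difference, IFNg minus control, of each gene (points) of the 10 G1 genes and of 5 lists of related genes, with the median of each list as a vertical bar, for all 6 libraries (black) and without both libraries numbered 3 (orange). The E2F targets all lie to the right of 0 (median 0.29 and 0.42), the ubiquitin ligase parts centre near 0 (-0.04 and -0.08), and the point far to the left is the barely read cyclin gene CCNA1.

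RefSeq promoter windows (GRCh38.p14, from 250 bases before to 50 bases after an annotated start) were at hand for 7 of the 10 genes, in 12 windows, and those of CCND1, CCNE2 and CDK2 were not analysed here. The windows were searched on both strands for the letters TTTCCCGC and TTTGGCGC, forms of the E2F site, for TTCNNNGAA, the core of the GAS element of IFNg-induced genes, and for the interferon-stimulated response element, written as GAAA, any 2 bases, GAAA. The E2F letters were in none of the 12 windows and in 2.27% of all 35116 windows. The GAS letters were in 1 of the 12 windows and in 7.66% of all windows. That 1 was the single window of RB1, at a start inside the gene. The response element letters were in none of the 12 and in 3.57% of all windows. For RB1 the start at the upstream end of the gene was not searched. Of 10 E2F targets with a window, 7 held the E2F letters. That is a count by gene, and some of these genes have more than 1 window, whereas the 2.27% is by window. The sites below are shown to set the 1 GAS match of the set beside that of IRF1, which was higher in IFNg, and to show E2F matches of downstream genes. Each is the strand of the gene, 5′ to 3′, with the matched letters in capitals, given as they read on that strand.
IRF1, GAS, chr5:132490881-132490905, minus strand: agcctgatTTCCCCGAAatgacggc
RB1, GAS, chr13:48476249-48476273, plus strand: aattattaTTCATTGAAcacatcat
E2F1, E2F, chr20:33686390-33686413, minus strand: aaaaaggaTTTGGCGCgtaaaagt
CDC6, E2F, chr17:40287878-40287901, plus strand: cattcggaTTTGGCGCgagcgcgg
UHRF1, E2F, chr19:4909479-4909502, plus strand: gagttttcGCGGGAAAaaaatcag
PCNA, E2F, chr20:5126666-5126689, minus strand: cgtcagggGCGGGAAAaggcgtgc
In E2F1 and CDC6 the letters read TTTGGCGC along the gene, and in UHRF1 and PCNA the match TTTCCCGC lies on the opposite strand. A match is a description of letters and does not show that a factor bound there, and no match says only that these letters are not in the window.

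Genes whose level followed the 2 called cyclins most closely over the 6 libraries were found by the Euclidean distance between log2 profiles centred on their own means, among 11701 genes with a mean of at least 100. CADPS2, a gene of vesicle release, was nearest to CCND1 (distance 0.13), with means of 3901 ± 298 in IFNg and 2510 ± 219 in control. RAB27B, a small GTPase of secretion (0.13), and DOCK10, a guanine nucleotide exchange factor (0.15), came next. FAM111B was nearest to CCNE2 (0.31), with 3385 ± 820 in IFNg and 1526 ± 939 in control, ahead of GPRC5B (0.53) and ZNF367 (0.57).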

How the data were processed

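RNA of 6 libraries was analysed, 3 per group, grouped by the sample titles. Cuffdiff 2.2.1, Cufflinks, TopHat2 2.0.13 and FastQC 0.11.3 were used, with the builds hg19 and GRCh37, per the submitters' processing notes, which give them no roles. Which tool counted reads, whether by strand, and how values were scaled is not given in the sources used here. In unit the deposited values are a signal: although the table is named RPKM, 100% of positive values in each library were whole multiples of 1 step (tolerance 0.001 reads), so the authors deposited reads divided by a size factor (0.863 to 1.20). Libraries within a group were no duplicates: chi-square tests of their reads gave 16.2 or more per degree of freedom.

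The filter kept 15546 genes that reached 0.5 in 3 or more libraries and removed 1641, and the kept genes were tested, 2-sided, with limma 3.58.1 (R 4.3.3, variance trend, pseudocount 1). A log2 difference on this scale understates the change of low genes. edgeR 4.0.16 (TMM) and DESeq2 1.42.0 on the recovered reads, other pseudocounts, filters and scalings, and left-out libraries were alternatives; edgeR called 482 genes higher and 169 lower, limma 509 and 163. The limma and edgeR fits were tested on simulated data. The simulation gave all genes the same spread beyond counting and had no library that stood apart as control 3 did.

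The 10 genes and the lists were chosen with earlier results of these data known. All 10 are named with every value; from other lists, up to 4 genes that passed, or otherwise the 2 with the smallest p, and CDKN1A and MTAP in any case. Some gene results are not reported here. IRF1, neighbouring genes and genes with a promoter match are named for those roles. TFDP1 and the wider cyclin and CDK families were named after their values were seen. Sequences come from RefSeq (GRCh38.p14) and GENCODE v29, and no coordinates were moved between builds.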

Additional observations from a re-analysis of the deposited data

How the results depend on the processing

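Over all 15546 genes, limma called 509 higher and 163 lower. The numbers were 279 and 41 without a variance trend, 466 and 198 after quantile normalisation, and 915 and 549 with a replicate block. They were 966 and 573 with a term for libraries numbered 3, and 882 and 599 without these libraries. edgeR called 482 and 169, and DESeq2 called 717 and 342. When each library was left out in turn, 330 to 847 genes were higher and 37 to 455 lower, the most without control 3. Of the 10 G1 genes, 2 were called higher with all libraries, 0 without a trend, 1 after quantile normalisation or in edgeR, 4 with a replicate block, 5 with the term, 4 without both libraries numbered 3, and 1 to 4 with each library left out. CCND1 kept its call in 17 of 18 alternatives, CCNE2 in 9 of 18, and none of the 10 was called lower in any. Those that kept CCNE2 included other pseudocounts and filters, TMM scaling and the replicate block. The rest were fits without control 3, without both libraries numbered 3 or with the term, which are no added support. The pathway lists held 12, 4, 9, 9, 12 and 2 tested genes. Of these, 0 were called higher in limma (3.27% of all genes) and 1 in DESeq2 (4.61%). With a replicate block 13 were called higher (915 of all 15546 genes), and with the term 12 (6.21%). Without both libraries numbered 3 the number was 13 (5.67%). With each library left out it was 0 to 15, the most without control 3 (5.45%). The cause of these shifts was not tested. The CCND1 to CCND3 difference of -0.13 turned to 0.13 without control 1, within -0.48 to 0.13 over the left-out libraries.

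The titles number the libraries 1 to 3 in each group, but the numbers do not show pairing throughout. Deviations of same-numbered libraries correlated at 0.07, 0.21 and 0.36 over genes. IFNg 1 and 2 correlated best with control 2, and IFNg 3 with control 3. With controls 1 and 2, IFNg 3 correlated at -0.13 and -0.33, so the libraries numbered 3 shared a deviation. The replicate block was kept as an alternative only. The 10 genes had 245 reads or more per library, and the part that counting had in the spread of each gene was not tested.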

Other observations

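A wider look at cyclin and CDK symbols, chosen after the values were seen, found 42 other tested genes of these families. In limma over all genes 0 passed in either direction, with 1 higher and 6 lower at an unadjusted p under 0.05 (8.81% and 6.46% of all genes), and their median log2 difference was -0.03. CCNB1, the mitotic cyclin that partners CDK1, averaged 12222 ± 2720 in IFNg and 15428 ± 1788 in control (SD, n = 3 each; log2 difference -0.35, limma adjusted p = 0.244). CDK17, a kinase of the PCTAIRE group, averaged 11964 ± 1106 in IFNg and 15228 ± 2291 in control (-0.34, adjusted p = 0.166). Without both libraries numbered 3 these 2 genes passed, both lower in IFNg (-0.43 and -0.41, adjusted p = 0.00181 and 0.00501), and no gene of the 42 passed as higher, where 3.85% of all genes were called lower and 5.67% higher. The gene with an unadjusted p under 0.05 that was higher was CDK12, which phosphorylates RNA polymerase II, at 13634 ± 864 in IFNg and 11718 ± 68.7 in control.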
